A study of Homo sapiens with 12 samples.

Results

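The genes of the oxidative phosphorylation subunits were taken by symbol: every gene on the array whose symbol begins with NDUFA, NDUFB, NDUFC, NDUFS or NDUFV and a digit, with SDHA to SDHD, UQCR, COX4 to COX8 or with ATP5. With pseudogenes and antisense or divergent RNAs left out, probe sets of a single symbol kept and the brightest probe set taken per gene, 76 of 19775 genes met this rule. They comprise 32 genes of complex I, 3 of complex II, 6 of complex III, 17 of complex IV and 18 of complex V. Of these, 73 passed the filter on low signals and were tested, among 13165 genes tested in all. The 3 that did not pass are isoforms of complex IV that are known from muscle or testis, COX6A2, COX7A1 and COX8C. Another 5 genes, NDUFC2, NDUFS5, NDUFS8, UQCRH and UQCRHL, have no probe set of a single symbol and were left out. The platform names NDUFA4, once counted with complex I, as COXFA4, so it is no member.

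The data are from 2 human lung adenocarcinoma cell lines, PC9 and HCC827, which grow on mutant, constantly active EGFR. Cells were kept for 8 days in 2 µM erlotinib, an inhibitor of the EGFR kinase, or in the solvent DMSO, with 10% fetal bovine serum in a medium changed at mid-course. Total RNA was hybridised to 12 Affymetrix arrays, 3 each for PC9 in erlotinib, PC9 in DMSO, HCC827 in erlotinib and HCC827 in DMSO. The comparison asks how the RNA of cells that live through 8 days of EGFR inhibition differs from that of untreated cells. Both lines are established cultures, and the labels name no transgene. The treatment protocol gives more plated cells, in flasks, for erlotinib and fewer, in dishes, for DMSO, whereas the design text names flasks for both, so plating and agent cannot be told apart. No label states that the 3 arrays of 1 group stand for separate cultures, so p-values measure the spread between these arrays, which may be technical.

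Oxidative phosphorylation takes place in the inner mitochondrial membrane. Complex I takes electrons from NADH and complex II takes them from succinate, complex III passes them to cytochrome c, and complex IV passes them to oxygen. Complexes I, III and IV pump protons, and complex V, the ATP synthase, lets them flow back and makes ATP. Most subunits are encoded in the nucleus and imported, while a small set of core subunits is encoded by mitochondrial DNA, so that a working complex needs both genomes. Tumour cells use this route beside glycolysis to differing extents.

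The nuclear respiratory factor NRF1 and the ETS factor GABP are known to bind many promoters of nuclear subunit genes, and the deposited data hold no binding, so promoters are shown as sequence only. By symbol, 56 of the 76 genes had a single RefSeq promoter of GRCh38.p14, and genes with none or several were left out. The shares over all promoters count every promoter in the table, without that limit. The 250 bases before the start were searched on both strands, where matches of a motif may overlap. The NRF1 motif GCGCANGCG lay in 17 of the 56 promoters, 30.4%, against 6.56% of all 35116 promoters in the table. The ETS motif CCGGAAG lay in 23.2% of the subunit promoters and 8.52% of all. The GC box GGGCGG was found in 58.9% against 42.6%. The letters CCAAT were in 33.9% against 32%, TATAAA in 10.7% of each, and the YY1 motif AAGATGG in 5.36% against 3.7%. Subunit promoters held a median of 19.5 CpG dinucleotides, against 11 over all promoters. A match is a description of letters and not of a bound site.

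The following promoters show the range and were chosen among named genes whose window overlaps no neighbouring gene. Capitals mark matches of the NRF1 or ETS motif on either strand, adjoining or overlapping matches being joined. UQCR11 and COX6A1 hold both motifs, NDUFS7 and NDUFB4 only the NRF1 motif, and NDUFV3 and COX7B2 neither.
UQCR11 promoter (chr19:1605463-1605712, - strand): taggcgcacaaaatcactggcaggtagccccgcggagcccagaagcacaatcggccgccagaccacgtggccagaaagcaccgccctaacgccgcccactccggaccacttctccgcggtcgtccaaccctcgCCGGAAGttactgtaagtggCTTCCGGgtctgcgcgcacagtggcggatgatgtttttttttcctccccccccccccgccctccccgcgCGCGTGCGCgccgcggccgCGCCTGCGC
COX6A1 promoter (chr12:120437863-120438112, + strand): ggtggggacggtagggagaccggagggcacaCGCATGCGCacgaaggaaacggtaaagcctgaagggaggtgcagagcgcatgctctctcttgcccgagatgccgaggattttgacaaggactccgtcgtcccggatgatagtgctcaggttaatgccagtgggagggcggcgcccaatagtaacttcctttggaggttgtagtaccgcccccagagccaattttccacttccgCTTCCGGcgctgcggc
NDUFS7 promoter (chr19:1383657-1383906, + strand): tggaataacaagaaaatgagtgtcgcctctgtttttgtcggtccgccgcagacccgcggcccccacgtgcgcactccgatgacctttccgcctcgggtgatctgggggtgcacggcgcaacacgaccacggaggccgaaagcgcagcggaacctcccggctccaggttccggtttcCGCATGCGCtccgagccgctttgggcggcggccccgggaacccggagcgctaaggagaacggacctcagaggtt
NDUFB4 promoter (chr3:120596086-120596335, + strand): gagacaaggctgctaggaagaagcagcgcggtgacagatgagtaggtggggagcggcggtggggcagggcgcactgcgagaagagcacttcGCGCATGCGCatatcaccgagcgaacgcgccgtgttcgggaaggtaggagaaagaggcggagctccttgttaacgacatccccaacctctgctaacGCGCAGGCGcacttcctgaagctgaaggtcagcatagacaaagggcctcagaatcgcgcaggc
NDUFV3 promoter (chr21:42893059-42893308, + strand): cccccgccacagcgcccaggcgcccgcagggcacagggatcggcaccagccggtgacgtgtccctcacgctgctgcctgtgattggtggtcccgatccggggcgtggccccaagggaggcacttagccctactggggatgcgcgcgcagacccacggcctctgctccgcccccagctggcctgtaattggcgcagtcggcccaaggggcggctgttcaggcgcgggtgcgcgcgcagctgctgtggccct
COX7B2 promoter (chr4:46909246-46909495, - strand): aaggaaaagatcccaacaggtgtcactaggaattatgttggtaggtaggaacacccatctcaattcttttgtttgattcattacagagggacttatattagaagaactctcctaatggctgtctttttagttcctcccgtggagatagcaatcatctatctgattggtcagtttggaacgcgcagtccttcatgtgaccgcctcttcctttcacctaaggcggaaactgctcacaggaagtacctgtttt
The COX7B2 promoter had 5 CpG dinucleotides, against 31 in that of UQCR11. Of the 30 genes with a promoter that fell in PC9, 12 held an NRF1 match, as did 2 of the 22 that were not called and 2 of the 2 that rose. For the ETS motif the counts were 8 of 30 lower, 5 of 22 not called and 0 of 2 higher. The same split was not made for all genes or for the HCC827 calls. Whether motif and call go together was not tested.

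Values are MAS5 signals, a linear brightness per probe set that the authors' software scaled on each array to a 2% trimmed mean of 150. The median signal of an array was 11.1 to 14.5, and arrays of a group correlated with each other at r of 0.9929 to 0.9973 across genes. Tests used log2(signal + 8), and a gene was called at a limma adjusted p under 0.05. Signals of different probe sets are not compared as levels between genes. The epithelial markers EPCAM, CDH1, KRT7, KRT8, KRT18, KRT19 and EGFR were all detected, with group means of at least 855. Of 13 measured markers of leukocytes, endothelium and fibroblasts, 9 stayed under the filter, among them PTPRC, CD3E, CD14, VWF, COL1A2, PDGFRA and DCN, while PECAM1, CDH5, COL1A1 and LUM passed it. Their summed signal was 1050 to 1180 in PC9 erlotinib arrays and 1010 to 1070 in PC9 DMSO arrays, and 635 to 705 in HCC827 erlotinib arrays and 175 to 199 in HCC827 DMSO arrays. The sums hold markers that moved opposite ways. PECAM1 fell in PC9, with group means of 506 ± 25.3 in erlotinib and 835 ± 48.6 in DMSO, and averaged 6.4 in HCC827 erlotinib and 6.03 in HCC827 DMSO. CDH5 rose in PC9, with 178 ± 3.75 in erlotinib and 105 ± 6.69 in DMSO. COL1A1 rose in both lines, with 292 ± 21.2 in PC9 erlotinib and 71 ± 6.67 in PC9 DMSO, and 460 ± 39.9 in HCC827 erlotinib and 150 ± 12.3 in HCC827 DMSO. LUM rose in both lines too, with 104 ± 22.9 in PC9 erlotinib and 1.4 ± 1.01 in PC9 DMSO, and 183 ± 17.5 in HCC827 erlotinib and 6 ± 1.31 in HCC827 DMSO (SD, n = 3 in each group). Their part in the results was not tested. In bulk RNA, fewer cells of a kind and less RNA per cell cannot be told apart.

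In PC9, the subunit genes leaned downwards after erlotinib by small amounts. Of the 73 tested genes 38 fell, 52.1%, against 28.3% of all genes tested, and 3 rose, 4.11%, against 36.4% of all genes. The median log2 change was -0.17, against 0.05 over all genes, with 59 negative and 14 positive changes between -0.83 and 0.72. On the probe sets used, no subunit gene reached a 2-fold change, which 13.0% of all genes passed while called. Dimmer probe sets of NDUFB4 and NDUFB8 passed it, at 1.55 and 1.03. All 3 erlotinib arrays lay below all 3 DMSO arrays for 34 subunit genes, against 28.4% of all genes, and above them for 4, against 36.6%. The median signal over the subunit genes was 1460 ± 47.3 in erlotinib and 1650 ± 87.4 in DMSO (SD over 3 arrays each). Scaling moves this picture: centring each array on its median shifts all genes, to a median of -0.12, and then 59 subunit genes fell and 1 rose at a median of -0.33, whereas after quantile normalization 29 fell and 4 rose at a median of -0.10 with all genes at 0.00. Over all 13165 genes, calls were 4790 higher and 3731 lower as deposited, and 3556 higher and 5367 lower after centring. After quantile normalization they were 4270 higher and 4071 lower. The excess of subunit falls over the share of all genes was smallest there.

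Many subunit probe sets are bright, and bright genes as a whole moved down in PC9. In the top decile of genes by mean log2 signal, the median PC9 change was -0.12 and 47.5% of the 1317 genes fell. That decile holds 39 of the 73 subunit genes, of which 24 fell, 61.5%, at a median of -0.17. The other 34 subunit genes had 14 falls and a median of -0.16. In HCC827 the same decile had a median of 0.00 with 20.7% of its genes lower, and 1 of the 39 subunit genes in it fell. Median changes of all genes in PC9 ran downwards over the brighter deciles, with 0.06 in the sixth, -0.05 in the eighth and -0.10 in the ninth.

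**Figure D1:**
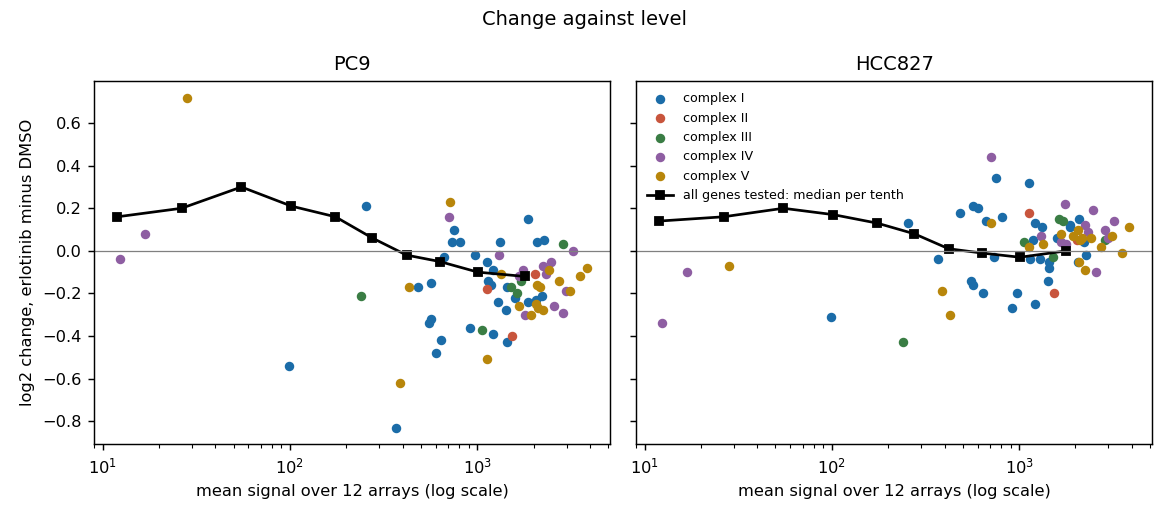
Log2 change, erlotinib minus DMSO (vertical axis), against mean signal over 12 arrays (horizontal, log scale) for each of the 73 tested subunit genes, coloured by complex, with PC9 left and HCC827 right. Squares joined by a line give the median change of all genes tested in each decile by signal; in PC9 this line ends at -0.12 in the brightest decile, where 39 subunit genes lie at a median of -0.17.

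HCC827 showed no such lean. Of the 73 genes 12 rose, 16.4% against 32.3% of all genes, and 8 fell, 11% against 19.5% of all, so both shares were under the background. The 12 include COX7B2, which passed the filter only through PC9 and lay under the table median on all HCC827 arrays. Without the tissue-restricted isoforms 11 of 70 genes rose, 15.7%, and 8 fell, 11.4%, and their changes lay between -0.43 and 0.34. The median change was 0.05, against 0.07 over all genes. None reached a 2-fold change, which 7.24% of all genes passed while called. Erlotinib arrays all lay above the DMSO arrays for 20 genes, against 37.7% of all genes, and below them for 15, against 24.5%. The counts depend on scaling, for the subunit genes as for all genes. After median centring 3 subunit genes rose and 20 fell at a median of -0.07, with all genes at -0.05. After quantile normalization 17 rose and 10 fell at a median of 0.05, with all genes at 0.04. Over all 13165 genes, 4247 rose and 2571 fell as deposited. After centring 3091 rose and 4014 fell, and after quantile normalization 4025 rose and 2827 fell. Both subunit shares stayed under those of all genes at each scaling. The actin 3'/5' probe ratio, a measure of RNA and amplification quality, was 2.45, 2.99 and 3.64 in the HCC827 erlotinib arrays and 2.1 to 2.21 in the HCC827 DMSO arrays. With its log2 as a covariate 3 genes rose and 4 fell, and without HCC827 erlotinib arrays 2 and 3 the rises numbered 3. Leaving out HCC827 erlotinib array 2 or 3 alone left 6 rises, and leaving out HCC827 DMSO array 3 left 5. COX7B2 is among the rises in each of these counts. In PC9 the ratio was 2.05 to 2.53 in erlotinib and 2.09 to 2.35 in DMSO.

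The PC9 change minus the HCC827 change was tested for each gene in the same fit. It was lower for 30 of the 73 genes, 41.1% against 24.0% of all genes, and higher for 1, against 21.3% of all. Its median was -0.19, against -0.02 over all genes, and 62 of 73 differences were negative. Of the 38 genes that fell in PC9, 5 also fell in HCC827, 3 rose there and 30 were not called there. The 5 are NDUFA6, NDUFB6, NDUFS3, NDUFS7 and SDHD, and the 3 are NDUFC1, SDHA and UQCR11. No gene rose in both lines, and 20 were called in neither. The HCC827 rises of these 3 genes were small: after median centring their changes were 0.09, 0.06 and 0.04, none was then called, and none was called with the actin ratio as a covariate. The count of 30 lower differences became 17 with the actin ratio as a covariate and 13 without HCC827 erlotinib arrays 2 and 3.

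**Figure D2:**
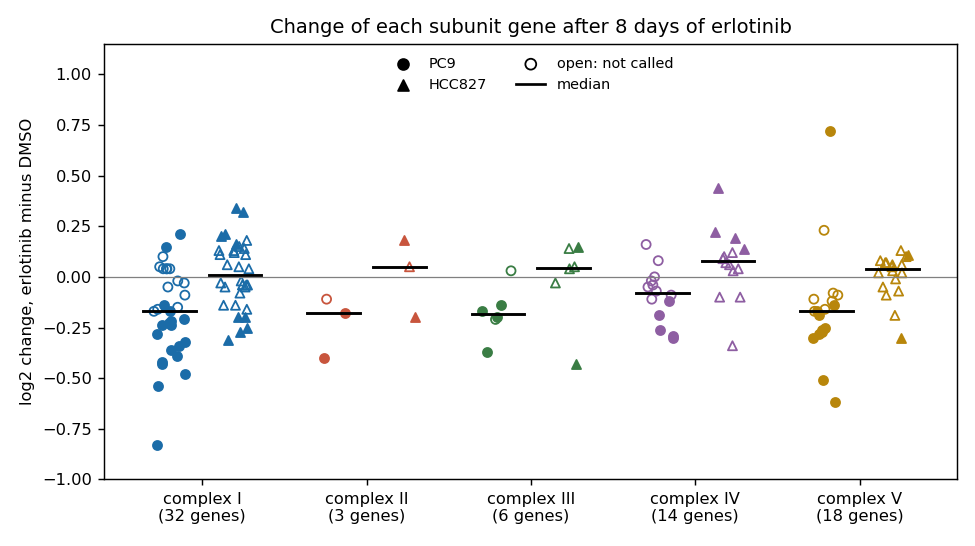
Log2 change, erlotinib minus DMSO, of each tested subunit gene by complex, with circles for PC9 left of triangles for HCC827; filled symbols were called, open ones were not, and bars are medians. PC9 medians lie between -0.19 and -0.08, and HCC827 medians between 0.01 and 0.08 as deposited, turning to between -0.11 and -0.04 after median centring.

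In PC9 the median change was negative in each complex under the deposited scaling, median centring and quantile normalization. The median change was -0.17 in complex I, -0.18 in complex II, -0.19 in complex III, -0.08 in complex IV and -0.17 in complex V. Genes that fell numbered 17 of 32, 2 of 3, 4 of 6, 5 of 14 and 10 of 18 in that order, against 28.3% of all genes. These are 53.1%, 66.7%, 66.7%, 35.7% and 55.6%, so complex IV was nearest to all genes. In the top decile of all genes by level 47.5% fell, at a median of -0.12. In HCC827, the complex medians were 0.01, 0.05, 0.04, 0.08 and 0.04, and after median centring they were -0.11, -0.06, -0.07, -0.04 and -0.07. The difference between the lines had a median of -0.19 in complexes I, IV and V, -0.20 in complex II and -0.21 in complex III. Whether complexes differ from each other was not tested. The median signal over the genes of complex V was 1940 ± 35.1 in PC9 erlotinib and 2280 ± 20 in PC9 DMSO, and over those of complex IV 2110 ± 66.6 in PC9 erlotinib and 2300 ± 49.3 in PC9 DMSO (SD, n = 3 each).

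**Figure D3:**
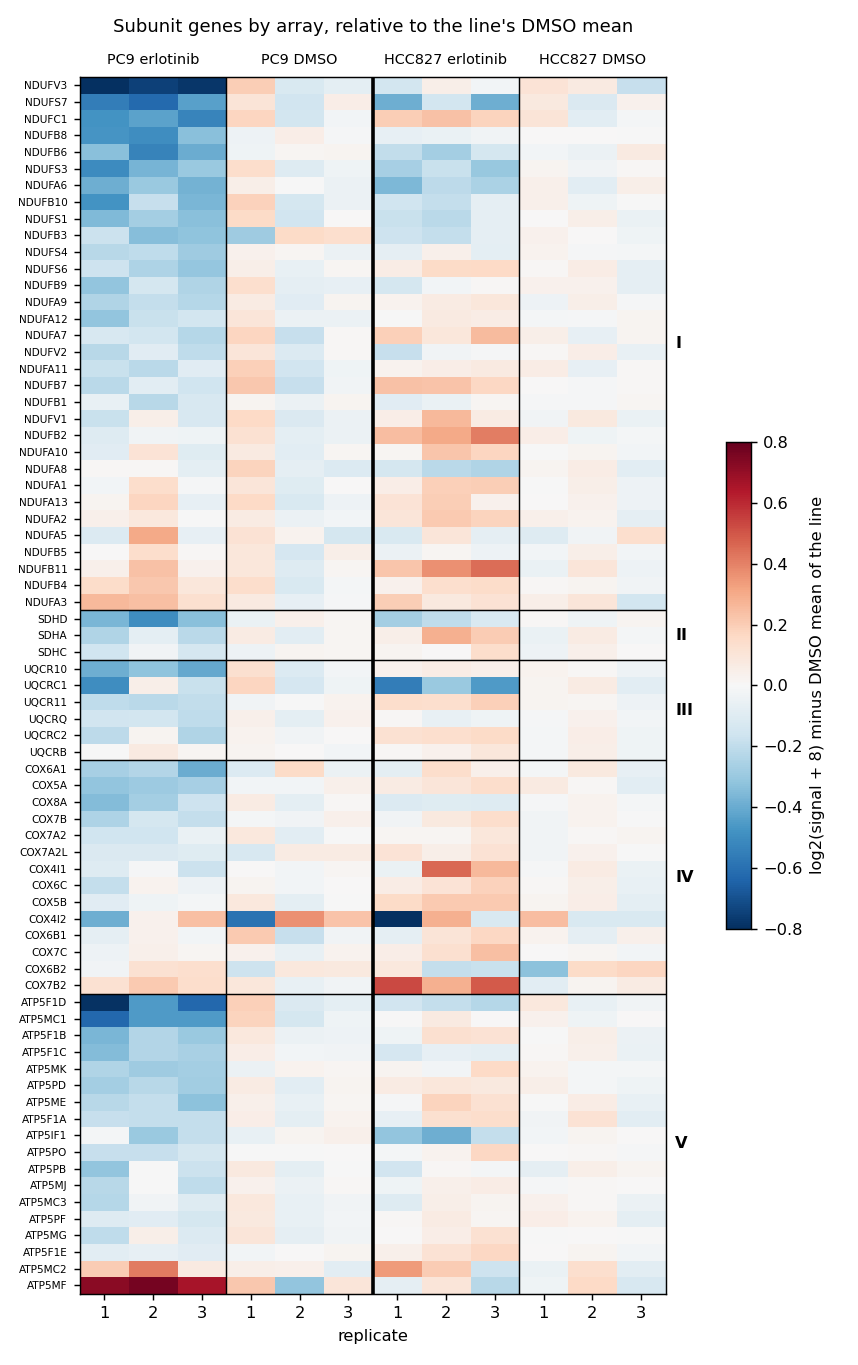
Heat map of the 73 tested subunit genes (rows, grouped by complex and ordered by their PC9 change) on 12 arrays (columns, erlotinib left of DMSO in each line), as log2(signal + 8) minus the mean of the line's DMSO arrays. Blue is lower and red higher, and colours saturate at 0.8 either way; the PC9 erlotinib columns are blue for most rows under the deposited scaling, with NDUFV3 at -0.83 and ATP5MF at 0.72 as the extremes.

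Complex I, the NADH dehydrogenase, has core subunits that carry out the chemistry and many accessory subunits around them. Of the 5 nuclear core genes measured, NDUFS1, NDUFS3, NDUFS7, NDUFV1 and NDUFV2, all but NDUFV1 fell in PC9. That is 80% against 28.3% of all genes, and the median change of the 5 genes was -0.32. NDUFS7, which carries the last iron-sulfur cluster before ubiquinone, had signals of 75.5, 71.4 and 82.6 in PC9 erlotinib and of 123, 102 and 119 in PC9 DMSO. These arrays did not overlap, and the log2 change was -0.54 ± 0.10 (SE, adjusted p = 0.000271). In HCC827 its signals were 85.8, 103 and 85.8 in erlotinib and 122, 106 and 118 in DMSO, again without overlap, at -0.31 ± 0.10 (adjusted p = 0.0207). That call was lost without HCC827 erlotinib array 1 or 3 or HCC827 DMSO array 1 or 3, at -0.29 to -0.27. NDUFS3, a subunit of the arm that reaches into the matrix, fell in both lines too, by 0.39 in PC9 and by 0.25 in HCC827 on the log2 scale. The core genes as a group had a median of -0.16 in HCC827, and 0 of them had a called difference between the lines, also at an unadjusted p under 0.05.

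Among the 27 accessory genes 13 fell and 2 rose in PC9, 48.1% lower against 28.3% of all genes and 7.41% higher against 36.4%. NDUFV3, a small subunit of the NADH-oxidising module, had the largest fall of all subunit genes. Its signals were 269, 315 and 307 in PC9 erlotinib and 614, 490 and 506 in PC9 DMSO, every erlotinib array lying under every DMSO array. The log2 change was -0.83 ± 0.10 (adjusted p = 2.01e-06), so that it fell by 43.9% on that scale. In HCC827 it had 295, 339 and 323 in erlotinib and 354, 345 and 287 in DMSO, which overlap, at -0.04 ± 0.10. A dimmer probe set of NDUFV3 changed by -0.12 in PC9 and was not called, so the fall rests on 1 of 2 probe sets.

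NDUFC1, a subunit of the membrane arm, went opposite ways in the lines. Its signals were 558, 577 and 537 in PC9 erlotinib and 877, 704 and 766 in PC9 DMSO, at -0.48 ± 0.08 (adjusted p = 4.11e-05). In HCC827 they were 572, 586 and 562 in erlotinib and 533, 468 and 491 in DMSO, at 0.20 ± 0.08 (adjusted p = 0.036). Neither pair of groups overlapped, and all 6 erlotinib arrays of the lines fell within a narrow band of 537 to 586. The difference between the lines was -0.68 ± 0.11 (adjusted p = 9.52e-05). The HCC827 call was lost without any 1 of the HCC827 erlotinib arrays or HCC827 DMSO array 2 or 3, at 0.16 to 0.22. NDUFA6, a subunit near the joint of the arms, fell in both lines. It had 904, 965 and 914 in PC9 erlotinib and 1228, 1189 and 1152 in PC9 DMSO, at -0.36 ± 0.06 (adjusted p = 6.3e-05). In HCC827 it had 666, 737 and 717 in erlotinib and 879, 805 and 883 in DMSO, at -0.27 ± 0.06 (adjusted p = 0.0011). The difference of -0.08 ± 0.08 between the lines was not called.

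NDUFB2 and NDUFB11, subunits of the membrane arm, had the largest rises of complex I in HCC827. NDUFB2 had 1118, 1164 and 1254 in HCC827 erlotinib and 976, 918 and 932 in HCC827 DMSO, at 0.32 ± 0.06 (adjusted p = 0.00042). Its PC9 signals of 1128, 1193 and 1188 in erlotinib and 1320, 1152 and 1178 in DMSO overlapped. NDUFB11 had 745, 823 and 874 in HCC827 erlotinib and 615, 683 and 620 in HCC827 DMSO, at 0.34 ± 0.08 (adjusted p = 0.00145), again without overlap. In PC9 its change was 0.10 ± 0.08 and was not called. NDUFA2, NDUFB7 and NDUFC1 were the other rises in HCC827, and NDUFA6, NDUFA8, NDUFB6, NDUFS3 and NDUFS7 were its falls.

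Only NDUFA3 and NDUFB4 rose in PC9 among complex I genes. NDUFA3, a small membrane-arm subunit, had 379, 375 and 346 in erlotinib and 333, 301 and 314 in DMSO, at 0.21 ± 0.08 (adjusted p = 0.0349). NDUFB4, of the same arm, had 2116, 2220 and 2030 in erlotinib and 2100, 1753 and 1885 in DMSO, at 0.15 ± 0.06 (adjusted p = 0.0374). Its groups overlap, and after median centring its change was -0.01. A dim probe set of NDUFB4, at a mean signal of 52, was higher in PC9 at 1.55 (limma adjusted p = 1.71e-07) and was not called in HCC827. Leaving out PC9 erlotinib array 1 or 2 or PC9 DMSO array 2 or 3 ended the call of each gene, at 0.17 to 0.20 for NDUFA3 and 0.09 to 0.15 for NDUFB4, and PC9 then had 1 risen subunit gene. The remaining falls of complex I in PC9 were NDUFA9, NDUFA12, NDUFB1, NDUFB3, NDUFB6, NDUFB8, NDUFB9, NDUFB10, NDUFS4 and NDUFS6, which lay between -0.43 and -0.14. The difference between the lines was lower for 10 of the 27 accessory genes, among them NDUFV3, NDUFC1 and NDUFB2. That is 37% against 24.0% of all genes.

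Complex II, succinate dehydrogenase, also works in the citric acid cycle and has no subunit encoded by mitochondrial DNA. SDHA, the catalytic flavoprotein, had 1177, 1319 and 1194 in PC9 erlotinib and 1456, 1310 and 1408 in PC9 DMSO, with 1 erlotinib array above the lowest DMSO array. In HCC827 it had 922, 1087 and 1030 in erlotinib and 860, 936 and 882 in DMSO, where the groups overlap too. The changes were -0.18 ± 0.07 in PC9 (adjusted p = 0.0319) and 0.18 ± 0.07 in HCC827 (adjusted p = 0.0387). Their difference of -0.36 ± 0.10 was called (adjusted p = 0.00707). The PC9 call was lost without PC9 erlotinib array 1 or 3 or PC9 DMSO array 1 or 3, at -0.17 to -0.14, and the HCC827 call without HCC827 erlotinib array 2 or 3 or HCC827 DMSO array 1 or 3, at 0.13 to 0.17. The probe set is of a type whose probes may also match related sequences.

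SDHD, a membrane anchor that helps bind ubiquinone, fell in both lines. Its signals were 1382, 1263 and 1416 in PC9 erlotinib and 1721, 1838 and 1802 in PC9 DMSO. HCC827 had 1344, 1407 and 1489 in erlotinib and 1630, 1585 and 1647 in DMSO. In each line every erlotinib array lay under every DMSO array, at -0.40 ± 0.06 in PC9 (adjusted p = 8.54e-06) and -0.20 ± 0.06 in HCC827 (adjusted p = 0.00685). The difference between the lines was -0.20 ± 0.08 (adjusted p = 0.0449), and it was not called when any 1 of 8 arrays was left out, all but PC9 erlotinib arrays 1 and 3, PC9 DMSO array 1 and HCC827 erlotinib array 1, at -0.21 to -0.15. SDHC, the other anchor, changed by -0.11 ± 0.05 in PC9 and 0.05 ± 0.05 in HCC827 and was called in neither. Further SDHC probe sets differed from this one. A dimmer one was higher in both lines, at 0.43 in PC9 and 0.63 in HCC827 (limma adjusted p = 4.9e-06), another was higher in HCC827 at 0.19, yet another was lower in PC9 at -0.22, and one near the table median was higher in PC9 at 0.44.

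Complex III, the cytochrome bc1 complex, is represented by its large core proteins UQCRC1 and UQCRC2 and 4 small subunits. Its cytochrome c1, encoded by CYC1, is no member by symbol and was counted with the electron carriers. CYC1 fell by 0.76 in PC9 and was not called in HCC827, at -0.05, with a called difference of -0.71. UQCR10, which sits beside cytochrome c1, had 1105, 1154 and 1088 in PC9 erlotinib and 1586, 1343 and 1425 in PC9 DMSO, without overlap, at -0.37 ± 0.06 (adjusted p = 4.04e-05). In HCC827 its signals of 847, 863 and 851 in erlotinib and 844, 833 and 806 in DMSO lay close together, and the change of 0.04 ± 0.06 was not called. UQCR11, a very small subunit, moved apart in the lines. It had 1554, 1541 and 1562 in PC9 erlotinib and 1757, 1784 and 1824 in PC9 DMSO, at -0.20 ± 0.04 (adjusted p = 0.000664). HCC827 had 1661, 1648 and 1714 in erlotinib and 1529, 1523 and 1462 in DMSO, at 0.15 ± 0.04 (adjusted p = 0.00751). Neither pair overlapped, and the difference between the lines was -0.36 ± 0.06 (adjusted p = 0.00021). A dim probe set of UQCR11 was lower in PC9 as well, at -0.42, and was at -0.26 in HCC827 and not called.

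UQCRC1 was the only gene of complex III that fell in HCC827. It had 151, 182 and 163 in HCC827 erlotinib and 229, 237 and 213 in HCC827 DMSO, without overlap, at -0.43 ± 0.12 (adjusted p = 0.00636). In PC9 it had 211, 311 and 264 in erlotinib and 339, 272 and 293 in DMSO, with overlap and a change of -0.21 ± 0.12. UQCRC2 and UQCRQ fell in PC9, by 0.14 and 0.17 on the log2 scale, and UQCRB changed by 0.03 in PC9 and 0.05 in HCC827.

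Complex IV, cytochrome c oxidase, takes its catalytic core from mitochondrial DNA, and its nuclear genes encode the surrounding subunits. Of the 10 widely expressed ones 5 fell in PC9, namely COX5A, COX6A1, COX7A2, COX7B and COX8A, and none rose by limma, with 0 also at an unadjusted p under 0.05. That is 50% at a median of -0.11, against 28.3% of all genes. In the top decile by level, which holds all of the 10 but COX6B1, 47.5% of genes fell at a median of -0.12. COX5A, which faces the matrix, had 2660, 2701 and 2753 in PC9 erlotinib and 3263, 3255 and 3407 in PC9 DMSO, at -0.29 ± 0.05 (adjusted p = 2.99e-05). COX6A1, the common isoform of a regulatory subunit, had 1442, 1474 and 1317 in PC9 erlotinib and 1611, 1935 and 1677 in PC9 DMSO, at -0.30 ± 0.07 (adjusted p = 0.00178). Neither pair overlapped. In HCC827 COX5A had 2757, 2817 and 2905 in erlotinib and 2772, 2654 and 2491 in DMSO, and COX6A1 had 1871, 2181 and 2035 in erlotinib and 1956, 2089 and 1890 in DMSO. Both overlapped there, with changes of 0.10 ± 0.05 and 0.03 ± 0.07, and their differences between the lines were -0.39 and -0.33 and were called. A dimmer probe set of COX5A was lower in both lines, at -0.96 in PC9 and -0.58 in HCC827 (limma adjusted p = 0.000114), so the HCC827 direction of COX5A depends on the probe set.

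In HCC827, COX5B and COX7C rose by 0.19 and 0.14 on the log2 scale. On the probe sets used, 0 complex IV genes fell there in limma, also at an unadjusted p under 0.05. COX4I1, a regulatory subunit, was called higher at 0.22 ± 0.09 (adjusted p = 0.0468), with signals of 1614, 2303 and 2005 in HCC827 erlotinib and 1662, 1748 and 1608 in HCC827 DMSO. The first erlotinib array lay within the DMSO arrays, and without erlotinib arrays 2 and 3 the change was -0.05. Leaving out any 1 of 8 arrays, PC9 arrays included, ended the call, at 0.11 to 0.26. COX7A2L, which takes part in joining complexes III and IV, changed by -0.11 in PC9 and 0.09 in HCC827, was called in neither, and had a called difference of -0.20.

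A further 6 isoforms of complex IV are known from particular tissues or states. COX7B2, the testis isoform of COX7B, had 1455, 1545 and 1476 in PC9 erlotinib and 1421, 1281 and 1311 in PC9 DMSO, at 0.16 ± 0.09, and was not called although the groups did not overlap. In HCC827 the same probe set had 6.1, 3.9 and 5.7 in erlotinib and 1.2, 1.9 and 2.2 in DMSO, all below the table median of 13. It is among the 12 genes counted as higher in HCC827, but neither a fold nor a test is given at such signals. COX4I2, the isoform known to be raised by low oxygen, had 3.5 to 9.8 in PC9 erlotinib and 2 to 11.4 in PC9 DMSO, and 4 to 25.4 in HCC827 erlotinib and 17.2 to 24.5 in HCC827 DMSO. COX6B2, another testis isoform, had group means between 15.5 and 18.5. COX6A2 and COX7A1, isoforms of heart and skeletal muscle, and COX8C had group means of 0.667 to 8.6.

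**Figure D4:**
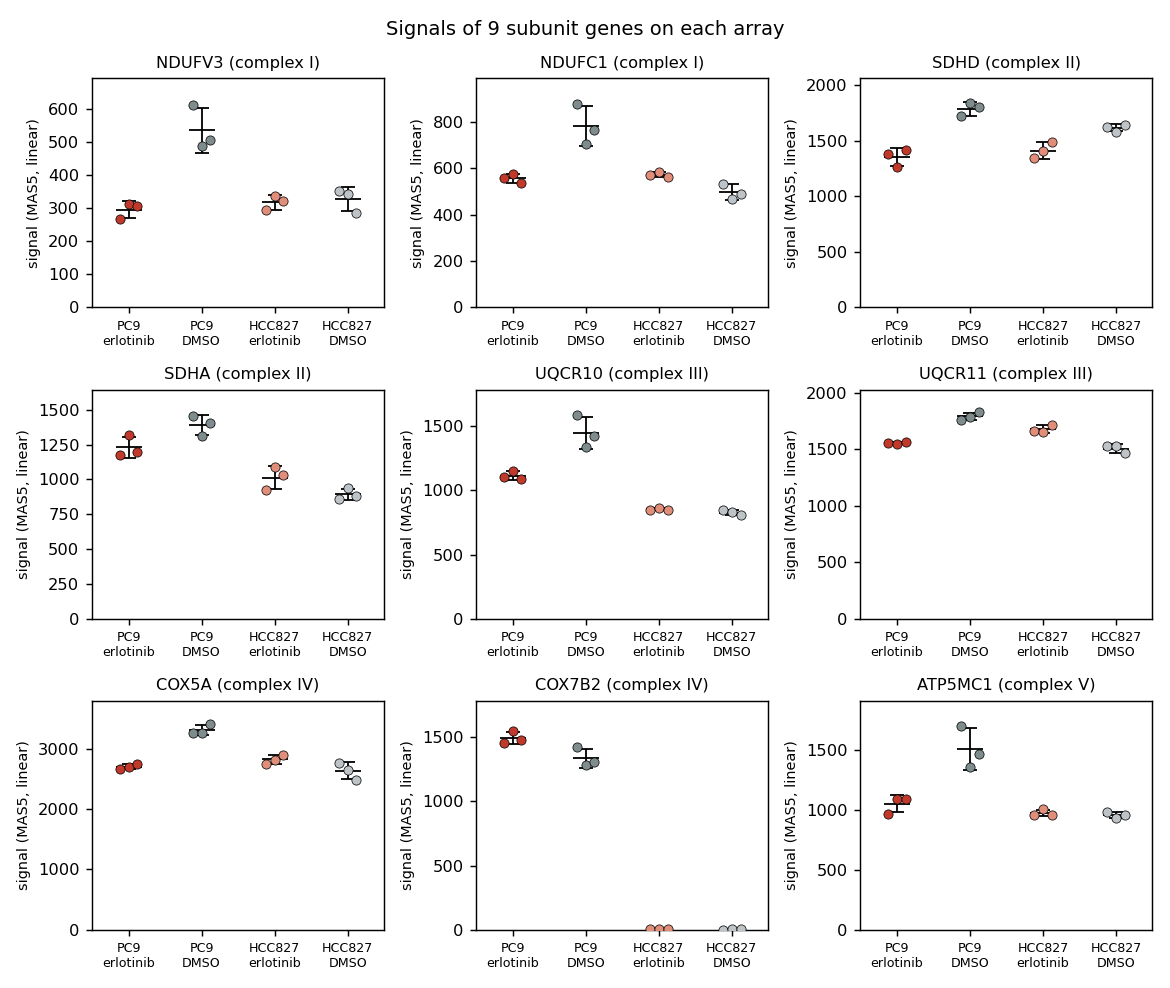
MAS5 signals (linear axis starting at 0) of 9 subunit genes on each array, with points for the 3 arrays of a group and bars for mean and SD, erlotinib left of DMSO in each line. NDUFC1 and UQCR11 lie below DMSO in PC9 and above it in HCC827, and COX7B2 is bright in PC9 and near 0 in HCC827.

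Complex V, the ATP synthase, has a catalytic F1 head, a c-ring that turns in the membrane, a stalk that holds the head still and small membrane subunits. In the F1 head, ATP5F1A, ATP5F1B, ATP5F1C and ATP5F1D fell in PC9, 80% of 5 genes against 28.3% of all genes. The median of the 5 genes was -0.28. All 5, ATP5F1E included, had a called lower difference between the lines, against 24.0% of all genes. That of ATP5F1E was not called with the actin ratio as a covariate. ATP5F1D, the delta subunit of the central stalk, had 298, 380 and 335 in PC9 erlotinib and 598, 481 and 495 in PC9 DMSO, without overlap, at -0.62 ± 0.09 (adjusted p = 2.09e-05). In HCC827 it had 331, 323 and 314 in erlotinib and 393, 355 and 362 in DMSO, which also did not overlap, at -0.19 ± 0.09 (adjusted p = 0.0995). Its difference was -0.43 ± 0.13 (adjusted p = 0.0141). A second probe set of ATP5F1D was lower in both lines, at -0.59 in PC9 and -0.29 in HCC827 (limma adjusted p = 0.027), so its HCC827 call depends on the probe set. ATP5F1E, the epsilon subunit, had 3460, 3638 and 3774 in HCC827 erlotinib and 3370, 3411 and 3310 in HCC827 DMSO, at 0.11 ± 0.04 (adjusted p = 0.0291), and was at -0.01 after median centring. The call was lost without HCC827 erlotinib array 2 or 3 or HCC827 DMSO array 1 or 3, at 0.08 to 0.11.

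The c-ring protein is made from 3 genes with the same mature product. ATP5MC1 had 970, 1096 and 1097 in PC9 erlotinib and 1704, 1363 and 1469 in PC9 DMSO, without overlap, at -0.51 ± 0.07 (adjusted p = 1.19e-05). In HCC827 its signals of 958, 1009 and 963 in erlotinib and 984, 937 and 961 in DMSO overlapped, at 0.02 ± 0.07, and the difference was -0.54 ± 0.10 (adjusted p = 0.000531). Its sister genes were not called in PC9, with 0.23 for ATP5MC2 and -0.12 for ATP5MC3. Of the 4 stalk genes ATP5PD and ATP5PO fell in PC9, by 0.26 and 0.17, and of the 5 membrane genes ATP5ME, ATP5MJ and ATP5MK fell, by 0.25, 0.14 and 0.27 on the log2 scale. These shares are 50% and 60%, against 28.3% of all genes. On the probe sets used, 0 of the stalk and membrane genes were called in HCC827 by limma, also at an unadjusted p under 0.05.

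ATP5MF, a membrane subunit, was called higher in PC9 at 0.72 ± 0.14 (adjusted p = 0.000309), but on its single-symbol probe set the signals were 33.1, 34.3 and 31.2 in erlotinib and 20.9, 12 and 18.6 in DMSO, near the table median. It was the only gene with a called higher difference between the lines, and with a filter at the 70th percentile of the table, which it does not pass, 0 genes had one by limma, also at an unadjusted p under 0.05. ATP5IF1, which blocks the synthase from running backwards, had 478, 453 and 521 in HCC827 erlotinib and 586, 606 and 597 in HCC827 DMSO, without overlap, at -0.30 ± 0.08 (adjusted p = 0.0043). On the probe sets used it was the only complex V gene that fell in HCC827. Further probe sets of ATP5F1C, ATP5F1D, ATP5F1E, ATP5MC3 and ATP5MG were called lower there, at -0.16, -0.29, -0.42, -0.44 and -0.36. Of the further ones of ATP5IF1, one was lower in HCC827 at -0.26 and the other was at 0.04 and not called. In PC9 ATP5IF1 had 335, 274 and 295 in erlotinib and 323, 343 and 347 in DMSO, with overlap, at -0.17 ± 0.08 (adjusted p = 0.0727).

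Other probe sets bear on these calls. Among the genes, 35 had further tested probe sets, and in PC9 a further one was called in the opposite direction for 6 genes, ATP5F1C, ATP5PD, COX7B, NDUFB6, NDUFB8 and UQCRC2. In HCC827 this was so for ATP5F1E alone. With the brightest plain probe set in place of the brightest of any kind, 7 genes rose in PC9. Probe sets of the kind that may match several transcripts were used for 36 genes, and probe sets that may match related sequences for 6.

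Genes around the complexes were read from lists of the pathway. Of 7 mitochondrially encoded subunits with a probe set, 0 were called in PC9 by limma, also at an unadjusted p under 0.05. Their median there was 0.00. In HCC827 4 rose, ND2, ND4, COX2 and ATP6, at 0.15 to 0.21, which is 57.1% of 7 against 32.3% of all genes. These rises are about as small as those of NDUFC1, SDHA and UQCR11, whose calls were lost after median centring. Centring took the HCC827 median of all genes from 0.07 to -0.05, and values of this list after centring are not given here. The difference between the lines was called lower for ND2 and ATP6, 28.6% of the 7 against 24.0% of all genes. ATP6, the proton channel subunit of complex V, had group means of 2410 ± 242 in PC9 erlotinib and 2530 ± 124 in PC9 DMSO, and of 2660 in HCC827 erlotinib and 2300 in HCC827 DMSO. Among 40 assembly factors, which help build the complexes, 23 fell and 8 rose in PC9 at a median of -0.32, 57.5% lower against 28.3% of all genes and 20% higher against 36.4%. In HCC827 8 fell and 4 rose at -0.03, 20% lower against 19.5% of all genes and 10% higher against 32.3%, so the falls were near the background. SDHAF3, needed to mature complex II, fell by 1.12 in PC9 and by 0.83 in HCC827, and SDHAF4 rose by 0.74 in PC9. SURF1, an assembly factor of complex IV, rose by 0.83 in HCC827 and by 0.31 in PC9.

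Of 21 electron carriers and coupling genes, 14 fell and 5 rose in PC9 at a median of -0.26, 66.7% lower against 28.3% of all genes and 23.8% higher against 36.4%. In HCC827 4 fell and 5 rose at -0.04, 19% lower against 19.5% of all genes and 23.8% higher against 32.3%. COQ3, an enzyme of ubiquinone synthesis, fell by 0.85 in PC9, and UCP2, a mitochondrial carrier, rose by 0.94. COQ8A, a kinase-like protein of ubiquinone synthesis, had a change of -0.64 in PC9 and 0.62 in HCC827, with a called difference of -1.26. ETFB, part of the electron transfer flavoprotein, fell by 0.57 in HCC827, and SLC25A4, an ADP/ATP carrier, rose by 0.62 there. In the citric acid cycle and pyruvate dehydrogenase, 12 of 16 genes fell in PC9 at a median of -0.26 and 0 rose, also at an unadjusted p under 0.05, which is 75% lower against 28.3% of all genes. In HCC827 3 fell and 1 rose, 18.8% lower against 19.5% of all genes and 6.25% higher against 32.3%. IDH3A, a subunit of isocitrate dehydrogenase, fell by 0.83 in PC9 and by 0.23 in HCC827, and IDH2 rose by 0.64 in HCC827.

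The list with the largest share of falls held the regulators of mitochondrial biogenesis, of which 13 were tested. By limma 12 fell in PC9 and 0 rose, also at an unadjusted p under 0.05, 92.3% lower against the 28.3% of all genes, at a median of -0.58, and in HCC827 7 fell and 1 rose at -0.24, 53.8% lower against 19.5% of all genes. NRF1, a factor whose motif was searched in the promoters, had group means of 231 ± 25.9 in PC9 erlotinib and 401 ± 50.2 in PC9 DMSO. In HCC827 it had 238 in erlotinib and 418 in DMSO. It fell by 0.77 in PC9 and by 0.80 in HCC827, and the difference of 0.02 between the lines was not called. Of the ETS factor GABP, GABPA changed by -0.10 in PC9 and was not called there, and fell by 0.25 in HCC827. GABPB1 fell by 0.37 in PC9 and by 0.30 in HCC827. YY1 fell by 0.29 in PC9 and was not called in HCC827, at -0.15. PPARGC1B, a coactivator, fell by 1.20 in PC9, where ESRRA, a nuclear receptor it works with, fell by 0.71. POLRMT, the mitochondrial RNA polymerase, fell by 0.50 in PC9 and rose by 0.56 in HCC827. PPARGC1A lay under the filter. The difference between the lines was called lower for 6 of the 13 regulators, among them PPARGC1B, ESRRA and POLRMT. That is 46.2% against 24.0% of all genes.

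**Figure D5:**
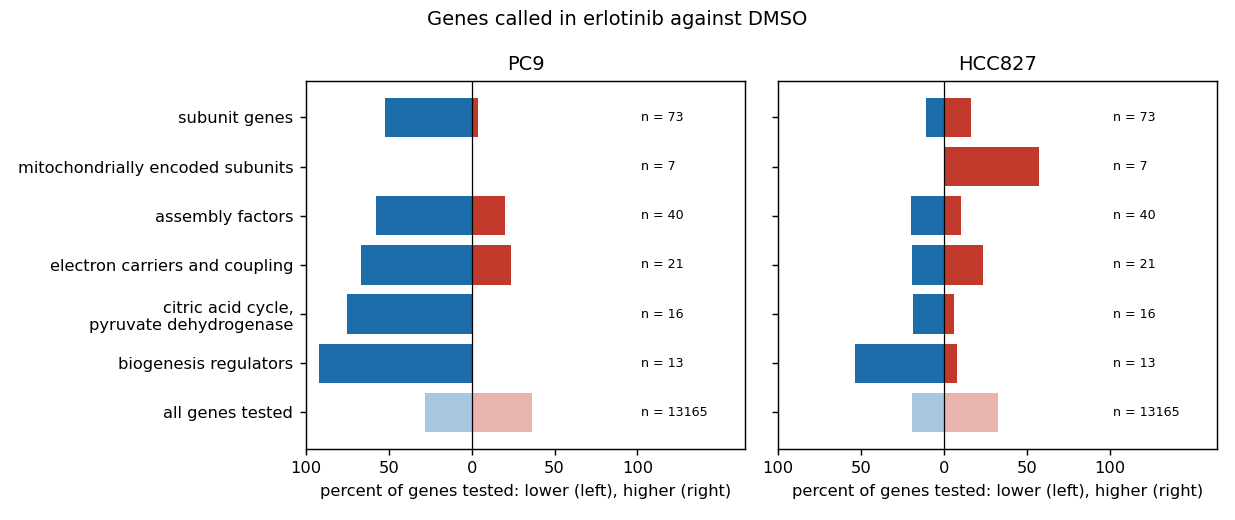
Percent of tested genes called lower (bars to the left) and higher (bars to the right) in erlotinib against DMSO, for the subunit genes, 5 pathway lists and all genes tested (pale bars), with PC9 left and HCC827 right. Biogenesis regulators reach 92.3% lower in PC9 and mitochondrially encoded subunits 0. For the subunit genes the HCC827 balance of 12 higher to 8 lower turns to 3 higher and 20 lower after median centring. That of all genes turns from 4247 higher and 2571 lower to 3091 higher and 4014 lower.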

How the data were processed

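RNA of 12 cell line arrays was measured, and all were used. The deposited table holds a linear signal intensity per probe set, made by the authors with MAS5 per the submitters' processing notes (version not given in the sources used here), with no detection calls, so the precision of a value was read from its brightness and from 3 arrays per group. The table has 54675 probe sets. For each of 19775 genes the brightest probe set with 1 symbol was used, and genes were kept where the mean log2(signal + 8) of a group reached that of the table median, a signal of 13, which left 13165. limma 3.58.1 under R 4.3.3 fitted 4 group means to log2(signal + 8) with an intensity trend, and p-values were Benjamini-Hochberg adjusted over all 13165 genes. The contrasts were erlotinib minus DMSO in each line, and the change in PC9 minus that in HCC827. The procedure was tested on simulated data. A first run of that test, with smaller changes, recovered too few of them and their sizes were then raised, so the power at changes as small as those of most subunit genes is limited.

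The members and the pathway lists were chosen with earlier results of these data known. Named genes were, per line and complex, up to 2 called members with the largest rise and 2 with the largest fall, the 4 with the largest called difference each way, the SDH genes and the tissue-restricted isoforms, and per list and line the largest called rise and fall. Other genes were named after their values were seen, to account for counts, to describe the promoters or for their role. Lists and complexes are described by counts and medians, with no test. Same-numbered arrays did not deviate together (correlations of -0.26 to -0.02 in PC9 and 0.01 to 0.13 in HCC827), so no pairing was used. Promoters and gene positions are from RefSeq tables for GRCh38.p14. Alternatives were another constant, scaling, filter, probe set, variance model, sample set, replicate block, actin ratio covariate and fold threshold, and each array left out in turn.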

Additional observations from a re-analysis of the deposited data

Results flagged for a closer look

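For 13 of the 25 tested named subunit genes the change after erlotinib differed between PC9 and HCC827. This is by the test of that difference (PC9 change minus HCC827 change, log2, limma adjusted p under 0.05). Over all genes tested it was called lower for 24.0% and higher for 21.3%. Some genes were named for their large called difference, so the count of 13 is partly set by the naming rule. In complex I these were NDUFV3 at -0.79, NDUFC1 at -0.68 and NDUFB2 at -0.37. In complex II they were SDHA at -0.36 and SDHD at -0.20, and in complex III UQCR10 at -0.42 and UQCR11 at -0.36. Complex IV had COX5A at -0.39 and COX6A1 at -0.33. Complex V had ATP5MC1 at -0.54, ATP5F1D at -0.43, ATP5F1E at -0.19 and, with the sign turned, ATP5MF at 0.78 on a dim probe set. With the actin 3'/5' ratio as a covariate, the differences of ATP5F1E, COX6A1, SDHA and SDHD were -0.12, -0.28, -0.31 and -0.10 and were not called. The difference of NDUFV3 was 0.04 on its plain probe set.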

How the results depend on the processing

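Counts and complex medians took 545 further values under the alternatives, of which 475 stayed within 1.5 times the count or within the spread between arrays and 70 did not. Of 1904 values of named genes, 1713 kept direction and call, 142 lost the call, 40 gained one and 9 changed sign. Median centring gave 1 higher and 59 lower in PC9, with medians of -0.34, -0.34, -0.35, -0.25 and -0.33 for complexes I to V. In HCC827 it gave 3 higher and 20 lower with medians of -0.11, -0.06, -0.07, -0.04 and -0.07, and median differences between the lines of -0.24, -0.26 and -0.24 in complexes I, III and V. It brought NDUFB4 to -0.01 in PC9 and ATP5F1E to -0.01 in HCC827. Quantile normalization gave PC9 medians of -0.12, -0.10, -0.10 and -0.10 in complexes I, II, III and V, and median differences of -0.11, -0.15, -0.13 and -0.08 in complexes II to V. Plain probe sets gave 7 higher in PC9, with medians of -0.30 in complex III and -0.12 in complex V, medians of -0.03, 0.18 and -0.21 in HCC827 complexes I, II and III, and for the difference 5 higher, with -0.15 in complex III and -0.14 in complex V. On plain probe sets SDHC was 0.43 in PC9, ATP5IF1 0.04, COX4I1 -0.10, COX5A -0.58 and UQCR11 -0.26 in HCC827, and the NDUFV3 difference was 0.04. The mean of all probe sets put HCC827 complex III at 0.00, and no intensity trend left 6 higher in HCC827. With the actin ratio as a covariate HCC827 had 3 higher and 4 lower, and the difference 17 lower with -0.13 in complex II. Without HCC827 erlotinib arrays 2 and 3, HCC827 had 3 higher, -0.02 in complex V and COX4I1 at -0.05, and the difference had 2 higher and 13 lower, with -0.13, -0.13 and -0.12 in complexes I, II and V. The cause of these shifts was not tested, apart from the stricter filter, which removes ATP5MF and so left 0 higher differences, also at an unadjusted p under 0.05. In limma's test against a 1.5-fold change 0 genes were called in all 3 contrasts, and 1 gene, lower in PC9, had an unadjusted p under 0.05.

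Leaving out each array in turn gave 1 to 4 higher and 31 to 41 lower in PC9, 5 to 14 higher and 6 to 10 lower in HCC827, and 1 to 2 higher and 25 to 34 lower for the difference. PC9 medians lay between -0.23 and -0.13 in complex I and between -0.21 and -0.14 in complex III, and those of the difference between -0.22 and -0.12 and between -0.25 and -0.18. Replicate number as a block within each line gave 7 higher in HCC827, 33 lower in PC9 and 27 lower for the difference. NDUFA4 and NDUFA4L2 could not be moved to complex IV, nor ATP5S and ATP5SL left out, since the platform does not list these symbols. Adding COXFA4 genes to complex IV or leaving out ATP5IF1, both chosen after seeing the data, moved medians by less than the spread between arrays, as did leaving out the tissue-restricted isoforms. Precision is limited by 3 arrays per group and, for ATP5MF, COX4I2 and COX6B2, by signals near the table median.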

Other observations

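COXFA4L3, a relative of the complex IV subunit once named NDUFA4, is no member by symbol and was looked at after the data had been seen. Its signals were 291, 313 and 305 in PC9 erlotinib and 55.1, 61.4 and 52.1 in PC9 DMSO, without overlap. In HCC827 they were 2067, 1904 and 2129 in erlotinib and 1495, 1383 and 1534 in DMSO, again without overlap. It rose in both lines by limma, at 2.28 in PC9 (adjusted p = 1.94e-13) and 0.47 in HCC827 (adjusted p = 5.44e-05), and the difference of 1.81 was called. No subunit gene by the rule changed as much. COXFA4 itself was at -0.08 in PC9 and 0.02 in HCC827 and was not called, and COXFA4L2 lay under the filter.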
